A study of Homo sapiens with 18 samples.

Results

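The VEGF family and its receptors were followed in PANC-1 cells, an established line from a human pancreatic ductal carcinoma, through 8 genes of the 58302 in the expression table. These were the ligands PGF, VEGFA, VEGFB and VEGFC, the receptor tyrosine kinases FLT1 and KDR, and the co-receptors NRP1 and NRP2, matched from symbol to Ensembl identifier. The 8 genes were chosen by name with their FPKM values, their differences between the groups and their peaks in these same data already known, so their own values are given as a description without a test. Cells carrying a control shRNA vector (shCtrl) were compared with cells carrying an shRNA against NAT10 (shNAT10), both delivered by lentivirus into the same line. The labels call the control vector empty, while the study's methods list a non-targeting shRNA, and which of them these cells carried was not settled here. RNA-seq was made from 3 libraries per group. Acetylated RNA immunoprecipitation sequencing (acRIP-seq), in which RNA fragments bound by an antibody against N4-acetylcytidine (ac4C) are compared with their input, was made from 3 IP and 3 input libraries per group. The study describes 2 shRNA sequences against NAT10, and which of them these cells carried is not given in the sources used here. The labels do not say whether the replicates came from separate cultures, so the spread between them may be technical.

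VEGF ligands are secreted dimers that tumor cells release and that act mainly on the endothelial cells of blood and lymph vessels. VEGFA binds both FLT1 and KDR, PGF and VEGFB bind FLT1, and VEGFC acts through FLT4 and, after processing, KDR. NRP1 and NRP2 lack a kinase of their own, present VEGF to the kinase receptors and also bind class 3 semaphorins. NAT10 is the acetyltransferase that writes ac4C on RNA.

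The coding stretches under acRIP peaks are shown for VEGFC and KDR, whose peaks were each in 1 list only, and for NRP1, where a peak lay in both lists. They are read 5′ to 3′ from GENCODE v29 transcripts, on the GRCh38 build that the peak lists use. Capitals mark each run of 12 bases in which a C is followed by any 2 bases 4 times in a row. This pattern was searched on the transcript strand only, since the peaks are stranded.
VEGFC, shCtrl list, chr4:176683929-176687311, minus strand, 2 exons joined, the 237 coding bases of a peak of 270: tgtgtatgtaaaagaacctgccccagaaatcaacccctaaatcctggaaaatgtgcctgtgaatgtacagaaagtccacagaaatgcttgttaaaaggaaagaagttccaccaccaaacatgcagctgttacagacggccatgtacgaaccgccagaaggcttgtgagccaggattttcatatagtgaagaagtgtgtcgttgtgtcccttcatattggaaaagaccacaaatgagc
NRP1, shCtrl list, chr10:33263846-33330767, minus strand, 3 exons joined, all 270 bases of the peak: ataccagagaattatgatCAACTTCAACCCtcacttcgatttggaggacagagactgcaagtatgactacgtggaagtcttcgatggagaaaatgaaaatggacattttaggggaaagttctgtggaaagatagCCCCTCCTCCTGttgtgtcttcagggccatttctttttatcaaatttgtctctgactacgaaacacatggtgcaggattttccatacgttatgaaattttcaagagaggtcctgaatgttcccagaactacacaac
KDR, shNAT10 list, chr4:55110752-55114201, minus strand, 3 exons joined, all 271 bases of the peak: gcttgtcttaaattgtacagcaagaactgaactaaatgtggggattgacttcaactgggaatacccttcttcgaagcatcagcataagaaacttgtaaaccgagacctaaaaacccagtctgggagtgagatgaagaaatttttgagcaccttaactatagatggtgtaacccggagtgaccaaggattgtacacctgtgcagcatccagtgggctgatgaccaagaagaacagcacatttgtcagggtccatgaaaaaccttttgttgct

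The pattern started at 2 places in the NRP1 stretch and at none in the VEGFC and KDR stretches. It was also at none in another coding peak of NRP1, of 180 bases in the shCtrl list, which is not printed. It is common in coding sequence. Of windows of 237 bases tiled along the coding sequences of the tested genes, 61.6% held it, and of windows of 271 bases 65.2% did. The GC content was between 41.1% and 43.9% in the 3 stretches.

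In the RNA-seq, depth was between 15831720 and 23521762 reads per library. Across the tested genes, log2(FPKM + 0.1) correlated between the 6 libraries with Pearson's r between 0.924 and 0.982. NAT10 itself fell from a mean FPKM of 29.3 ± 2.01 (SD, n = 3) under the control vector to 8.09 ± 0.301 (n = 3) under the knockdown. Its difference was -1.84 on the log2(FPKM + 0.1) scale (SE 0.08, limma adjusted p = 3.85e-05), so the target of the shRNA followed the labels. Of 5 markers of ductal epithelial tumor lines all were above the level filter, with KRT8 highest and, by the mean over both groups, KRT7 lowest. The 4 keratins were lower in shNAT10 cells, whereas EPCAM, an epithelial adhesion protein, rose from 4.87 ± 0.783 to 22.6 ± 1.54 FPKM (log2 difference 2.20, SE 0.13, limma adjusted p = 6.88e-05) and was named after its values were seen. The summed FPKM of the 5 was 2787 to 3749 in shCtrl libraries and 1491 to 1673 in shNAT10 libraries, and its part in the results was not tested. In bulk RNA, fewer cells that express a gene and less of its RNA per cell cannot be told apart.

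Of the 8 genes, 6 were among the 12982 that reached 1 FPKM in 3 or more libraries, the filter used for all tests, while FLT1 and KDR were not. The 4 ligands and 2 neuropilins were therefore read from the fit of all tested genes, and the receptor kinases from a fit without the filter. The direction differed from gene to gene. All shNAT10 libraries lay below all shCtrl libraries for PGF and VEGFC, all lay above them for VEGFA and NRP2, and the groups overlapped for VEGFB and NRP1. Among all tested genes, 28.6% lay apart in the lower and 27.9% in the higher direction, so groups lying apart were frequent in these data.

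**Figure D1:**
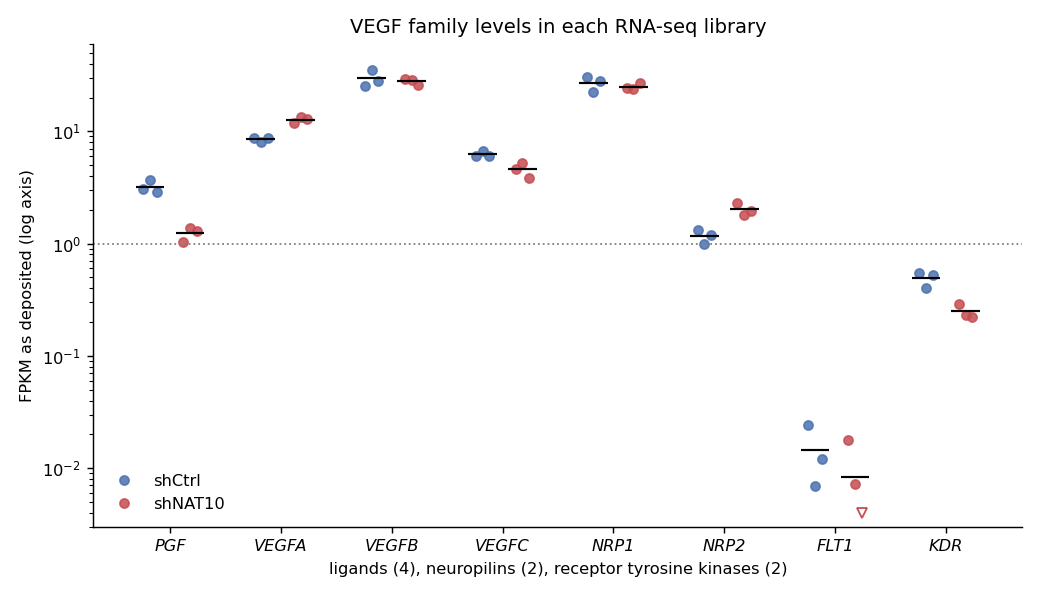
FPKM as deposited (log axis) of the 8 genes in each of the 6 RNA-seq libraries, with shCtrl in blue, shNAT10 in red and a black bar at the group mean. The open triangle stands for a library at 0 and the dotted line for the filter at 1 FPKM. PGF, VEGFC and KDR are lower and VEGFA and NRP2 higher in every shNAT10 library.

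PGF, placental growth factor, is a ligand of FLT1 and the neuropilins, and its gene lies on the minus strand at chr14:74941834-74955784. Its FPKM was 3.04, 3.72 and 2.88 in shCtrl replicates 1 to 3 and 1.03, 1.38 and 1.31 in shNAT10 replicates 1 to 3. The highest shNAT10 library was below the lowest shCtrl library by more than the range within either group. The group means were 3.21 ± 0.447 FPKM and 1.24 ± 0.182 FPKM, a level 2.59-fold higher in shCtrl cells. On the log2(FPKM + 0.1) scale the difference was -1.31 (SE 0.16), and between -1.38 and -1.19 when single libraries were left out. The values rest on 58 to 267 reads per library, 694 over the shCtrl group and 235 over the shNAT10 group. With a pseudocount of 1 the difference was -0.91.

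VEGFA, the main driver of vessel growth and of vascular permeability, is encoded on the plus strand at chr6:43770184-43786487. It was measured at 8.78, 8.04 and 8.68 FPKM in the shCtrl libraries and at 11.9, 13.3 and 12.8 FPKM in the shNAT10 libraries. The groups lay apart, with 1854 to 3142 reads behind each value. The means were 8.50 ± 0.405 and 12.6 ± 0.716 FPKM, a level 1.49-fold higher in shNAT10 cells. The log2 difference was 0.57 (SE 0.08) and ranged from 0.53 to 0.61 with each library left out. PGF and VEGFA, which share FLT1 as a receptor, thus differed in opposite directions between the groups.

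VEGFC, the ligand best known for lymphatic vessel growth, is encoded on the minus strand at chr4:176683538-176792727. Its FPKM was 6.06, 6.73 and 5.97 in the shCtrl libraries, against 4.62, 5.26 and 3.86 in the shNAT10 libraries. Each shNAT10 value lay below each shCtrl value, but the gap between the nearest libraries, 5.26 and 5.97 FPKM, was smaller than the range of the shNAT10 group. The means were 6.25 ± 0.412 and 4.58 ± 0.699 FPKM. The log2 difference was -0.45 (SE 0.12), with -0.55 to -0.34 across the fits that left out a library.

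VEGFB, a ligand of FLT1 linked to fatty acid handling and survival of vessels rather than to their sprouting, lies on the plus strand at chr11:64234538-64238793. Its FPKM was 25.3, 35.2 and 28.3 in shCtrl replicates 1 to 3 and 29.1, 28.7 and 26.1 in shNAT10 replicates 1 to 3. The shNAT10 values fell inside the range of the shCtrl values. The log2 difference was -0.07 (SE 0.12), and its sign turned to 0.06 without shCtrl replicate 2 and to 0.04 on the TPM scale. At this spread a difference was not detectable.

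NRP1, a co-receptor for VEGFA and for semaphorin 3A, lies on the minus strand at chr10:33177492-33336262. Its FPKM was 30.6, 22.6 and 27.8 in the shCtrl libraries, against 24.4, 23.9 and 26.9 in the shNAT10 libraries. The shNAT10 values again fell inside the shCtrl range. The log2 difference was -0.10 (SE 0.12), with -0.22 to -0.0038 across the fits that left out a library and 0.01 on the TPM scale.

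NRP2, the neuropilin that also serves VEGFC and semaphorin 3F, lies on the plus strand at chr2:205681990-205798133. Its FPKM was 1.32, 0.986 and 1.19 in the shCtrl libraries, against 2.30, 1.78 and 1.95 in the shNAT10 libraries. The groups lay apart, on 133 to 243 reads per library. The means were 1.16 ± 0.166 and 2.01 ± 0.265 FPKM, a level 1.73-fold higher in shNAT10 cells. The log2 difference was 0.74 (SE 0.18), between 0.64 and 0.83 with each library left out and 0.48 with a pseudocount of 1. Small parts of the exons of VEGFA (1.3%), NRP1 (4.87%) and NRP2 (1.06%) are also covered by genes annotated on the opposite strand, whose reads cannot be told apart where strand was not used in counting, and no exon of the 8 genes is shared with a gene on the same strand.

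The receptor kinases were near the lower end of the measurement. KDR, the main signalling receptor for VEGFA on endothelial cells, lies on the minus strand at chr4:55078259-55125595. Its FPKM was 0.544, 0.398 and 0.525 in the shCtrl libraries, against 0.292, 0.229 and 0.223 in the shNAT10 libraries, which stand for 55, 47 and 72 reads against 27, 26 and 23 reads. The shNAT10 libraries were all lower. The group means were 0.489 ± 0.0791 and 0.248 ± 0.0384 FPKM, and the log2 difference was -0.75 (SE 0.28), which the pseudocount of 0.1 makes smaller than the 1.97-fold ratio of the means. FLT1, the receptor shared by VEGFA, VEGFB and PGF, lies on the minus strand at chr13:28300344-28495145 and was hit by 3, 1 and 2 reads in shCtrl replicates 1 to 3 and by 2, 1 and 0 in shNAT10 replicates 1 to 3. A count of 0 allows up to 3 reads, so no difference in FLT1 was detectable at this depth. The family members outside the list were as low. VEGFD had 1 to 4 reads in each library, and the VEGFC receptor FLT4 had 3, 1 and 6 reads in shCtrl replicates 1 to 3 and 0 in each shNAT10 library. VEGFA, VEGFB, VEGFC and NRP1 by contrast gave at least 141 reads in every library.

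KDR and FLT1 are also endothelial genes, so 10 endothelial markers were read beside them. Of these, 4 (TEK, CLDN5, EMCN and ERG) were at 0 in all 6 libraries and only EGFL7 passed the filter. The defining markers PECAM1, CDH5 and VWF had mean levels of 0.00978, 0.0829 and 0.00538 FPKM under the control vector and of 0.0131, 0.0840 and 0 FPKM under the knockdown, all at or near 0. The sum of the 10 was 12.6 to 20.3 FPKM in shCtrl libraries and 8.28 to 9.61 FPKM in shNAT10 libraries. EGFL7, which reached 20.2 FPKM, made up nearly all of that sum.

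**Figure D2:**
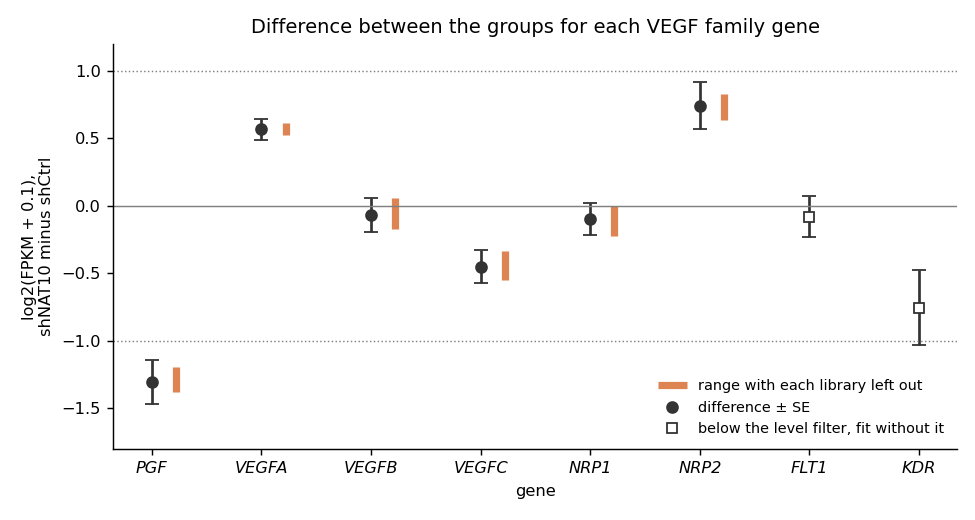
Difference between shNAT10 and shCtrl on the log2(FPKM + 0.1) scale for the 8 genes, with the SE as a whisker and, in orange, the range over the fits that left out 1 library each. Open squares are the 2 genes below the filter, and dotted lines mark a log2 difference of 1. PGF lies at -1.31 and NRP2 at 0.74, while the range of VEGFB crosses 0 and that of NRP1 ends just below it.

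By the rule used for all genes, a limma adjusted p under 0.05 with a log2 difference beyond 1, 1 of the 6 tested genes (PGF) was called lower and 0 were called higher. The rule called 3.57% of all tested genes lower and 2.91% higher. At an adjusted p under 0.05 with no limit on the size, 2 were lower (PGF and VEGFC) and 2 were higher (VEGFA and NRP2), against 21.2% and 20.8% of all tested genes. Since the genes were listed with this contrast known, nothing is read from these counts. The lower pair became 1 gene without shCtrl replicate 3, without shNAT10 replicate 1 and without shNAT10 replicate 3, and 3 without shCtrl replicate 2. The higher pair became 1 gene without shNAT10 replicate 1.

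The order of levels in shCtrl cells on the FPKM scale was VEGFB, NRP1, VEGFA, VEGFC, PGF, NRP2, KDR and FLT1, with VEGFB and NRP1 overlapping and every other neighbour apart in its range. In shNAT10 cells NRP2 stood above PGF, and the other places were held. Per longest coding transcript, a scale described below, PGF and NRP2 overlapped in shNAT10 cells, with means of 2.28 and 2.01 FPKM. The ratio of VEGFA to PGF in the same library was 2.89, 2.16 and 3.02 in the shCtrl libraries, against 11.5, 9.65 and 9.78 in the shNAT10 libraries. Per longest coding transcript it was 5.40, 4.04 and 5.64 against 21.5, 18.0 and 18.3. The scaling of the library does not enter this ratio, and the groups lay apart in it on both lengths. The ratio of NRP1 to NRP2 was 23.3, 22.9 and 23.5 in shCtrl replicates 1 to 3 and 10.6, 13.4 and 13.8 in shNAT10 replicates 1 to 3. Among the shCtrl libraries this ratio varied little (SD 0.264), although NRP1 and NRP2 each varied.

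Levels between genes depend on the length that the reads were divided by. The whole reads recovered from the FPKM steps showed that for 97.3% of the genes so recovered the authors divided by the longest annotated transcript. The length behind KDR, 5831 bases, is that of no GENCODE v29 transcript of the gene. For VEGFA this is a retained-intron transcript of 12167 bases, where the longest coding transcript has 3535, and for PGF a retained-intron transcript of 3549 bases against 1927. Divided by the longest coding transcript, a choice made after the values were seen, VEGFA reached 29.3 ± 1.39 FPKM under the control vector and 43.5 ± 2.46 FPKM under the knockdown. VEGFA then overlapped VEGFB (29.6 ± 5.05 FPKM) and NRP1 (27.0 ± 4.05 FPKM) in shCtrl cells and stood apart above VEGFB (28.0 ± 1.65 FPKM) in shNAT10 cells. VEGFA made up 18.1% ± 2.78 of the summed level of the 4 ligands in shCtrl cells and 27.3% ± 1.79 in shNAT10 cells as deposited, and 41.4% ± 4.61 and 55.6% ± 2.11 per coding transcript. PGF made up 6.75% ± 0.410 and 2.67% ± 0.403 as deposited, and 8.30% ± 0.668 and 2.91% ± 0.368 per coding transcript. In every shNAT10 library the VEGFA share was larger and the PGF share smaller than in every shCtrl library, on both scales. As deposited, VEGFB was the largest share, at 62.0% ± 3.48 in shCtrl cells and 60.2% ± 1.90 in shNAT10 cells. The choice of length leaves each gene's ratio between the groups as it is.

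**Figure D3:**
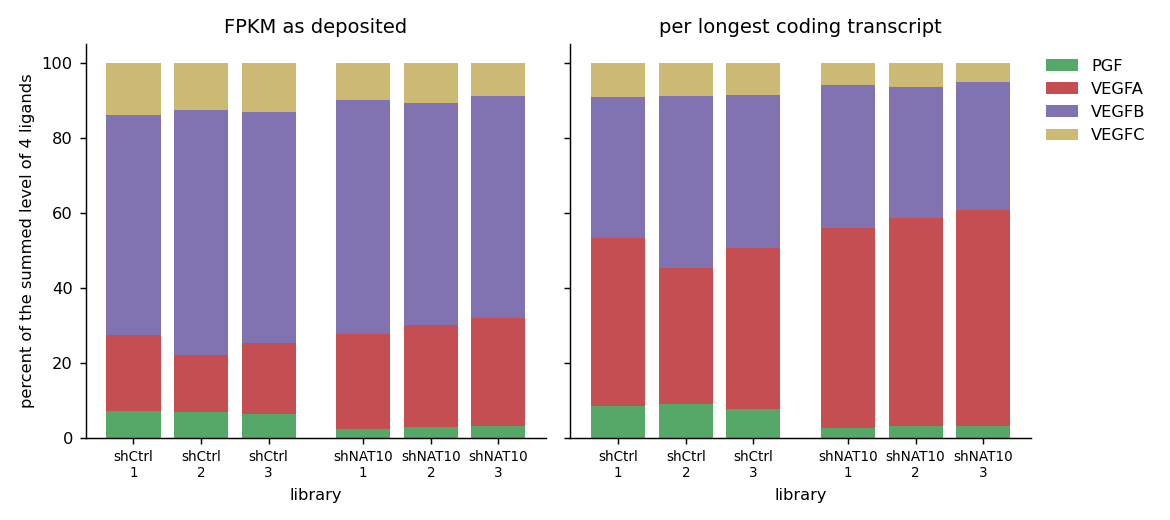
Share of each of the 4 ligands in their summed level, in percent, for each of the 6 libraries, as deposited (left) and per longest coding transcript (right). The PGF share shrinks from a mean of 6.75% to 2.67% as deposited, and the VEGFA share grows from 18.1% to 27.3%.

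The genes with profiles most like that of PGF were found by the distance between log2(FPKM + 0.1) values, each centred on its mean over the 6 libraries, among protein-coding genes. The 5 nearest were LRRC24 (distance 0.0898), CDK5R2 (0.14), EVA1C (0.192), DLX3 (0.193) and PLAC8 (0.193). Their log2 differences lay between -1.33 and -1.24. The nearness rests on the same 6 libraries and is a description.

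The upstream sequences of the 3 genes that were lower in all shNAT10 libraries are shown for comparison. They come from RefSeq on GRCh38.p14, which held start sites for 6 of the 8 genes, and end where the first exon of the gene in GENCODE v29 begins or after 250 bases. Capitals mark GGGCGG, a core bound by Sp-family factors, searched on both strands (CCGCCC on the other).
PGF, chr14:74955785-74956014, minus strand: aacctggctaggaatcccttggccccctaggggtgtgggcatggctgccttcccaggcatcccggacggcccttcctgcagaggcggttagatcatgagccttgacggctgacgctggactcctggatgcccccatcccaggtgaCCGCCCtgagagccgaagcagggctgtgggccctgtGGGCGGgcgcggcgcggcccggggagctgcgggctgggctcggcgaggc
VEGFC, chr4:176792923-176793172, minus strand: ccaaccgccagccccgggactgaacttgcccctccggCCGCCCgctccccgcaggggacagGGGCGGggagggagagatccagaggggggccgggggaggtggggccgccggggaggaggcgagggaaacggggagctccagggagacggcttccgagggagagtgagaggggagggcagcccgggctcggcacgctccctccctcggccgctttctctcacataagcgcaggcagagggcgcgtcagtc
KDR, chr4:55125596-55125845, minus strand: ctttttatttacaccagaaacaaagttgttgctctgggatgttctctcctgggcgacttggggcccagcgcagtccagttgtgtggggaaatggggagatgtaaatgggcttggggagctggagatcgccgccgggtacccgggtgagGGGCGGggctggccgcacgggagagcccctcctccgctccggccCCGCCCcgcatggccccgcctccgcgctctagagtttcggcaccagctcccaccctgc

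Each of the 3 printed windows held GGGCGG at 2 places. RefSeq lists another start site for PGF, which is not printed. Its 250 bases, 187 of them in exons of PGF, held GGGCGG at 3 places, with a GC content of 80%. Of the 35116 RefSeq windows of 250 bases, 42.6% held GGGCGG at 1 or more places, and the share at 2 or more was not counted. Over the full 250 bases, which can run into the first exon, NRP2, a gene that was higher, and FLT1 held it at 3 places each. VEGFB, whose groups overlapped, held it at 6. Of these 250 bases, 17 lay in exons of the gene for FLT1 and 46 for VEGFB, so their counts are not like those of the printed windows. The GC content over the full 250 bases was 70.8% for PGF, 74.0% for VEGFC and 65.2% for KDR, against a median of 58% over all windows. The ACGTG core of hypoxia response elements, in 18.5% of all windows, and TATAAA, in 10.7%, were not in the PGF, VEGFC and KDR windows on either strand. A match of letters is not a bound site.

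In the acRIP-seq the authors deposited 1 peak list per group, so peaks carry no replicate error. Of the tested genes, 49.6% had a peak in the shCtrl list and 47.7% in the shNAT10 list. Among the 8 genes, 4 (VEGFA, VEGFB, VEGFC and NRP1) had a peak in the shCtrl list and 3 (VEGFA, NRP1 and KDR) in the shNAT10 list, with 9 peaks in each. PGF and NRP2, both of which differed in RNA level, had none in either list, nor had FLT1. A gene without a listed peak was not called there, which does not measure its ac4C as absent. The fold enrichment of IP over input had a median of 49.3 in the shCtrl list and 45.2 in the shNAT10 list.

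VEGFA had a peak in each list, but at different places. In the shCtrl list it was a peak of 211 bases in the 5′ UTR at chr6:43770483-43770693 with a fold enrichment of 217. In the shNAT10 list it was a peak of 211 bases centred in the coding sequence, with a fold enrichment of 9.18, and a peak of 271 bases in the 3′ UTR at chr6:43785798-43786068 with 564. No VEGFA peak of one list shared a base with a peak of the other. Of all peaks, 25.6% of the 16892 shCtrl peaks and 27.4% of the 15813 shNAT10 peaks shared a base with the other list. The coding transcript with the longest CDS does not hold the first and the last of these, so their place in UTRs applies to the longest transcript.

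VEGFB and VEGFC had 1 peak each in the shCtrl list alone. The VEGFB peak, at chr11:64237604-64238526, covered 328 bases in 3 blocks, with a fold enrichment of 17.1. On the longest coding transcript it lay around the stop codon, with 27 coding bases and 196 in the 3′ UTR, where it was centred. Its other bases were outside that transcript, and no annotated transcript held the whole peak. The VEGFC peak, whose coding part is printed above, reached 33 bases past the stop codon and had 169. The VEGFB peak stood at the 30.9 percentile of its list by fold enrichment and the VEGFC peak at the 69.9 percentile.

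NRP1 carried 6 peaks in each list, spread from the coding sequence to the 3′ UTR. In each list 1 of them was centred off the longest coding transcript. The shCtrl one had 60 of 180 bases on it and the shNAT10 one 105 of 270, and no annotated transcript held either whole. The fold enrichment of the 6 peaks was 5.72 to 57.6 in the shCtrl list and 28.8 to 87.6 in the shNAT10 list. At 3 places a peak of one list shared bases with a peak of the other. In the 3′ UTR, the 180 bases of the shCtrl peak at chr10:33178719-33178898 lay inside a shNAT10 peak, with 57.6 against 73.1. Near the start of the coding sequence, the 270 bases printed above lay inside a longer shNAT10 peak of 660 bases, with 25.6 against 30.9. The third shared 121 bases, with 26.3 against 87.6. Only the first held as a match when each peak had to cover at least 50% of the other. These fold values come from separate lists without replicates, so no difference between them was tested.

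KDR had a single peak, in the shNAT10 list, at its printed coding stretch. Its fold enrichment of 2110 was at the 97.2 percentile of that list, in the group where the RNA-seq had only 23 to 27 KDR reads per library. Peaks on such genes were frequent: 22.0% of the genes with a peak in the shCtrl list and 22.5% in the shNAT10 list did not pass the level filter. The endothelial marker VWF, at 0 FPKM in all shNAT10 libraries, had a peak in the shNAT10 list, and ERG, at 0 in every library, had one in the shCtrl list. The part of low input in the KDR value was not tested.

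The other genes of the pathway were read from lists of 139 genes, of which 101 were tested. By the call rule 2 were lower and 0 were higher, and at an adjusted p under 0.05 alone 20 were lower and 20 higher, beside the 21.2% and 20.8% of all tested genes. The median log2 difference was -0.04 over these genes and -0.01 over all tested genes. The counts depended on single libraries: 31 were lower without shCtrl replicate 2, and 9 were higher without shNAT10 replicate 1, 11 without shNAT10 replicate 2, and 13 without shNAT10 replicate 3 or shCtrl replicate 3. On the TPM scale, where the median over all tested genes was 0.10, 4 genes were called higher.

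Among 17 genes of VEGF release and processing, 9 were tested, 3 were lower and 1 was higher at an adjusted p under 0.05. PLAU, the urokinase that cuts matrix and can free bound VEGF, fell from 101 ± 9.34 to 43.6 ± 0.823 FPKM (log2 difference -1.21, SE 0.08, limma adjusted p = 0.000116). Of 15 genes known as targets of hypoxia-inducible factors, all were tested, 4 were lower and 4 higher. PGK1, a glycolytic enzyme, fell from 231 ± 12.8 to 68.6 ± 2.97 FPKM (log2 difference -1.75, SE 0.07, limma adjusted p = 3.84e-05). PLAU and PGK1 were the only pathway genes past the call.

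Of 8 hypoxia factors, 7 were tested, 0 were lower and 3 higher at an adjusted p under 0.05, beside 21.2% and 20.8% of all tested genes. HIF1A, the oxygen-sensitive subunit that drives VEGFA transcription under hypoxia, rose from 37.2 ± 6.95 to 54.2 ± 2.72 FPKM (log2 difference 0.56, SE 0.14, limma adjusted p = 0.0166). ARNT, its partner subunit, rose from 10.6 ± 1.35 to 13.2 ± 0.115 FPKM (limma adjusted p = 0.0423). Both depended on single libraries, and the adjusted p was 0.0635 for HIF1A without shNAT10 replicate 3 and 0.12 for ARNT without shNAT10 replicate 1.

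Of 49 genes of VEGF signalling, 41 were tested, 7 were lower and 7 higher. AKT1, the survival kinase below PI3K, rose from 11.7 ± 0.537 to 22.2 ± 0.884 FPKM (log2 difference 0.92, SE 0.07, limma adjusted p = 0.000181). RAC1, a GTPase of cell movement, rose from 104 ± 11.8 to 204 ± 3.96 FPKM (log2 difference 0.98, SE 0.09, limma adjusted p = 0.000339). Both had a peak in the shCtrl list and none in the shNAT10 list. The other named pathway genes differed in this. PGK1, HIF1A, ARNT, VHL, PLXNA1, EDN1 and DUSP6 had a peak in both lists. PLAU, SEMA3A and PDGFB had none in either, and SPRY4 had one in the shNAT10 list alone. Of all peaks, only 25.6% in the shCtrl list and 27.4% in the shNAT10 list shared a base with the other list. A link between peaks and RNA levels was not tested. RAC1 and PGK1 have processed pseudogenes, and how reads shared with such copies were counted was not tested for any gene here.

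Of 13 neuropilin partners, 8 were tested, 2 were lower and 3 higher. SEMA3A, the semaphorin that binds NRP1, rose from 7.34 ± 1.27 to 13.9 ± 0.728 FPKM (log2 difference 0.92, SE 0.13, limma adjusted p = 0.00193). PLXNA1, a plexin that signals for semaphorins bound to neuropilins, rose from 10.7 ± 1.16 to 14.8 ± 0.578 FPKM (log2 difference 0.46, SE 0.09, limma adjusted p = 0.0079).

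Of 15 inhibitors and feedback genes of VEGF signalling, 12 were tested, 4 were lower and 0 were higher, with a median log2 difference of -0.25. Of all tested genes, 21.2% were lower and 20.8% higher at this adjusted p. The list is small and was chosen with earlier results known, so nothing is read from its counts. DUSP6, a phosphatase that switches off ERK, fell from 2.74 ± 0.242 to 1.38 ± 0.0694 FPKM (log2 difference -0.94, SE 0.13, limma adjusted p = 0.00162). SPRY4, a Sprouty inhibitor of receptor signalling, fell from 10.3 ± 0.432 to 6.97 ± 0.348 FPKM (log2 difference -0.55, SE 0.08, limma adjusted p = 0.00153).

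Of 20 other angiogenic ligands and receptors, 9 were tested, 0 were lower and 2 higher, beside 21.2% and 20.8% of all tested genes. EDN1, the precursor of the vasoconstrictor endothelin, rose from 16.2 ± 1.83 to 30.7 ± 1.33 FPKM (log2 difference 0.92, SE 0.10, limma adjusted p = 0.00056). PDGFB, a growth factor that recruits pericytes, rose from 46.0 ± 1.66 to 59.8 ± 2.27 FPKM (log2 difference 0.38, SE 0.06, limma adjusted p = 0.00375).

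**Figure D4:**
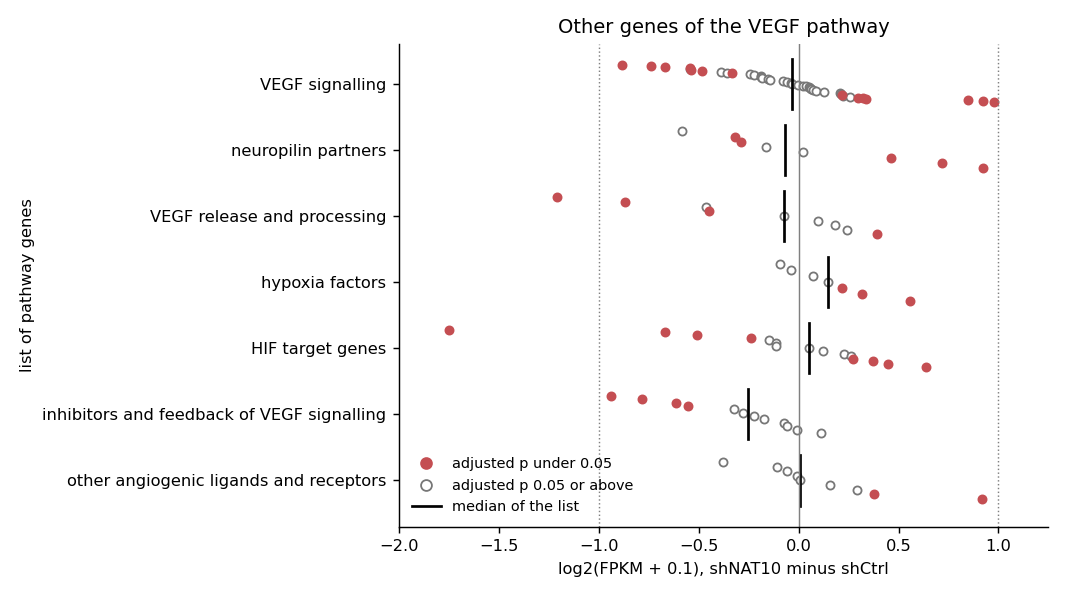
Log2 differences between shNAT10 and shCtrl of the 101 tested genes of the pathway lists, 1 point a gene, filled red at an adjusted p under 0.05, with the median of each list as a black bar. The points at -1.75 and -1.21 are PGK1 and PLAU, and no point lies beyond 1.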

How the data were processed

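RNA-seq of PANC-1 cells (3 shCtrl and 3 shNAT10 libraries) and acRIP-seq (3 IP and 3 input libraries per group) were used, with groups taken from the labels. The authors deposited FPKM values per gene and library. The submitters' processing notes name HISAT2, HTSeq 0.11.0, DESeq2 1.22.2 and the builds hg38 and GRCh38, without a role for each. The authors also deposited 1 peak list per group, holding the ratio (fold enrichment) of IP over input and the p-value of each peak. The peak caller is not given in the sources used here.

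The genes and lists were chosen with earlier results of these data known. limma 3.58.1 in R 4.3.3, with a mean-variance trend, was run on log2(FPKM + 0.1) of the 12982 genes that reached 1 FPKM in 3 or more libraries, and p-values were adjusted over all of them by Benjamini-Hochberg. Fold changes on this scale understate those of low genes. The step was tested on simulated data. Python 3.11.15 was used otherwise. Named pathway genes were those past the call (adjusted p under 0.05 and a log2 difference beyond 1), at most 3 rises and 3 falls a list, or otherwise the 2 with the lowest adjusted p under 0.05. VHL was added after its values were seen.

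Whole reads were recovered from the FPKM steps, with 99.9% of values above 0 within 0.02 reads of a whole number. They gave the depths and entered 1 alternative fit. Gene positions came from GENCODE v29. Peaks were placed by their middle base on the longest coding transcript, and lists were compared by overlaps of at least 1 base on the same strand. Sequences are printed for 3 peaks, and some others are not reported here. The alternatives are given at the end.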

Additional observations from a re-analysis of the deposited data

How the results depend on the processing

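Each of the 6 filtered genes and NAT10 kept its log2 difference within 1 SD between replicates under every alternative except for 5 values: PGF (-0.91), NRP2 (0.48) and NAT10 (-1.74) with a pseudocount of 1, and VEGFA (0.68) and NAT10 (-1.74) on the TPM scale. FLT1 and KDR, below the filter, were fitted once only. NAT10 was between -1.88 and -1.74 and was called in each. The number of the 8 genes called lower went from 1 to 0 with a minimum FPKM of 5, where PGF is not tested, and to 0 with a pseudocount of 1. At an adjusted p under 0.05 alone the 2 lower genes became 1 with TPM, a minimum FPKM of 5 or no filter, and 1 to 3 with a library left out, and the 2 higher genes became 1 with a minimum FPKM of 5 and 1 to 2 with a library left out. Pathway genes called lower went from 2 to 6 without the filter, and those called higher from 0 to 4 with TPM, 1 without the filter, 1 with quantile normalization and 0 to 1 with a library left out. At an adjusted p under 0.05 alone the 20 lower pathway genes ranged from 14 to 31, and the 20 higher ones from 9 to 23, with a library left out. The cause of these shifts was not tested.

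When only the 50% of each list lowest in p-value was kept, 2 of the 8 genes instead of 4 had a shCtrl peak. The overlapping peaks went from 3 to 1 in each list with the 50% of highest fold enrichment and 1 with a reciprocal overlap of at least 50%. Divided by the longest coding transcript, an alternative chosen after seeing the data, the VEGFA share of the 4 ligands was 41.4% instead of 18.1% in shCtrl cells and 55.6% instead of 27.3% in shNAT10 cells.

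The replicate numbers were also tried as a replicate block. Same-numbered libraries deviated together with correlations of -0.04, 0.06 and 0.11. The shCtrl replicates 2 and 3 correlated best with their own number, and shCtrl replicate 1 did not. Such small correlations cannot settle whether the numbers mark pairs. With the replicate block NAT10 stayed at -1.84 (limma adjusted p = 0.00102), the counts of the 8 genes were the same, and 16 instead of 20 pathway genes were higher. Depth limits FLT1, VEGFD and FLT4, at 6 reads or fewer per library, and the peak lists carry no reads or replicates.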
